A study of Mus musculus with 30 samples.

Results

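The 40 genes described here encode RNA polymerase I, the factors that start its transcription, and the proteins that fold, modify and cut ribosomal RNA (rRNA) into ribosomal subunits. They were taken from a fixed list of symbols, matched to the Ensembl identifiers of the count tables, and sorted by role into 7 genes of RNA polymerase I and its factors, 4 abundant nucleolar proteins, 4 box C/D and 3 box H/ACA small nucleolar ribonucleoprotein (snoRNP) genes, 14 genes of small-subunit (40S) assembly and 8 of large-subunit (60S) assembly. All 40 were found among the 49089 identifiers of each table, and all 40 were among the 11368 genes with enough counts to be tested. The samples were 30 libraries of poly(A)-selected RNA from AML12 cells, a line derived from hepatocytes of a mouse that carried a transforming growth factor alpha transgene. Cells had been transfected with a non-silencing siRNA (Control), with siRNA against Foxk1 (FoxK1 KD), against Foxk2 (FoxK2 KD) or against both (DKD), which encode forkhead transcription factors of the FoxK family. All groups were kept overnight without serum, in medium with albumin, and RNA was taken without insulin (basal) or after 6 h with 100 nM insulin. Each of the 8 groups had 4 replicates, except that Control and DKD cells after insulin stimulation had 3 each. The knockdowns were transient, so each library holds RNA of cells with partial loss of the target.

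Ribosome assembly begins in the nucleolus, where RNA polymerase I copies the rRNA genes into a long precursor. The small-subunit processome, the snoRNPs and the large-subunit factors bind that precursor while it is made, guide its methylation and pseudouridylation, and cut it into the rRNAs of the 40S and 60S subunits. Insulin and growth factor signalling are known to raise ribosome production in many cells, and hepatocytes, which export large amounts of protein, carry many ribosomes. Precursor and mature rRNA lack the poly(A) tail used here to select RNA, so the data describe the messenger RNAs of the machinery and not its product.

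Libraries held 2141460 to 5668270 reads counted on genes, and a member had between 24 and 6478 of them. Foxk1 stood at 45.2% of the Control mean in FoxK1 KD cells and at 57.1% in DKD cells at basal, and Foxk2 at 33.7% in FoxK2 KD cells and 35.8% in DKD cells. Of the 11 hepatocyte markers, Krt8, Krt18 and Hnf4a were the highest and averaged 706, 1102 and 134 CPM (reads scaled to a common library size). Ttr, Serpina1a, Trf, Cebpa and Alb, the gene of albumin, averaged 34.4, 20.7, 14.35, 10.8 and 10.4 CPM. Apoe, Fgb and Apoa1 averaged 1.68, 0.56 and 0.53 CPM, and 8 of the 11 passed the filter for testing. The bile duct markers Spp1, Krt19 and Sox9 averaged 1391, 488 and 201 CPM, and Epcam had no count. The marker lists of fibroblasts, endothelial cells and leukocytes summed to at most 1.39, 0.550 and 4.43 CPM in any library, with Pdgfra, Pdgfrb, Adgre1 and Cd3e at 0. The first replicate of basal Control cells stood apart, with 1110 CPM on rRNA-derived loci against 310 to 391 CPM in the other replicates of that group, so each basal comparison with Control is also given without it. The 12 basal libraries of Control, FoxK1 KD and FoxK2 KD cells also differed together from the other 18, with 52 genes lower and 83 higher in all 12 than in all 18. Npm1 was the 1 member among them.

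A further limit concerns shared reads. For 18 members (Polr1a, Polr1e, Taf1d, Nop56, Rrp9, Dkc1, Nhp2, Nop14, Wdr43, Heatr1, Pno1, Tsr1, Bysl, Bop1, Pes1, Wdr12, Rrp1b and Gnl3) another annotated gene overlaps on the opposite strand, and since the strand setting of the counting is not given in the sources used here, reads of the partners cannot be told apart. Npm1 is known for processed copies elsewhere in the genome, and how reads shared with such copies were counted is not given either.

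The promoters of these genes are shown first, because many of them carry the same short element. A window from 250 bases before to 50 bases after a transcription start was found for 35 of the 40 members in RefSeq (GRCm38.p6), all but Bop1, Fbl, Npm1, Rrp12 and Rrs1. Genes with several annotated starts have several windows, 43 in all for the 35 members, and a match in any window was counted. The E-box CACGTG, the element read by Myc and its relatives, lay in the window of 10 of the 35 members (28.6%), and in 8.09% of the 27018 genes with a window. The ETS core, CCGGAAG or CTTCCGG depending on the strand, lay in 12 of the 35 (34.3%) and in 9.93% of all genes. The forkhead core, GTAAACA or TGTTTAC, lay in 1 member, Rrp1b (2.86%), against 4.05% of all genes. That match was in a window inside the gene, chr17:32048035-32048334. The Rrp1b window that holds the annotated gene start, chr17:32035912-32036211, had none. The 27018 genes include genes not tested here, and the shares were not matched for expression or base composition of the window. E-box and ETS matches of the members shared no base. The 30 bases around each E-box of the members are given 5′ to 3′ on the strand of the gene, with the E-box in capitals. Rrn3 holds a pair of matches.
Rrn3: gagcgccaaggtCACGTGcacacgcctcta
Rrn3: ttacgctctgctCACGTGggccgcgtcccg
Utp4: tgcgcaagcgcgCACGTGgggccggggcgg
Utp18: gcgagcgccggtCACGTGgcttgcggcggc
Utp20: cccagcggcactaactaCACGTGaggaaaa
Pno1: tgcgctgtacaaccacgCACGTGttcctct
Tsr1: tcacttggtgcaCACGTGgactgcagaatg
Ltv1: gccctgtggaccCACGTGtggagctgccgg
Wdr43: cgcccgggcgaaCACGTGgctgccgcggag
Nop2: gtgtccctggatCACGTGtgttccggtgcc
Pes1: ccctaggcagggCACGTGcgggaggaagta

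These windows lie close to the start in most of the 10 genes. The Utp20 window is chr10:88826765-88826794 (- strand), that of Pno1 chr11:17211540-17211569 (- strand) and that of Nop2 chr6:125131811-125131840 (+ strand). Counting the first transcribed base as 1, the first base of the match is at position 38 from the start of transcription in Utp20 and Pno1, and at position -60 in Nop2. Heatr1 and Polr1c, which responded to insulin in opposite directions, have no E-box in the window and an ETS core each, shown here in capitals.
Heatr1: cgtagtgagaagCCGGAAGttcctatgagg
Polr1c: cccacttgacgtCCGGAAGtgaaggacgtg

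A match of letters is a description of the sequence and does not show binding. Of the 10 members with an E-box, 7 were called higher in at least 1 of the 4 insulin comparisons, 2 in all 4 (Utp20 and Pno1), and none was called lower in any. Of the 25 members with a window but no E-box, 13 were called higher in at least 1, 3 in all 4 and 6 lower in at least 1. Of all genes tested, 25.7% were called higher in at least 1 insulin comparison, 3.66% higher in all 4 and 26% lower in at least 1.

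Among the 40 members, more messenger RNAs were higher than lower in insulin-stimulated against basal Control cells. The share of members called lower was no larger than that of all genes tested. The members were chosen with earlier results of these data known, and other genes of the pathway are described below. Of the 14 small-subunit genes 6 rose, Rrp12, Heatr1, Bysl, Utp20, Pno1 and Ltv1, and so did Bop1 of the large subunit and Polr1a and Polr1b of RNA polymerase I. The abundant nucleolar chaperones Npm1 and Ncl fell, with Polr1c and Nop16. By the quasi-likelihood test of edgeR, at an adjusted p (Benjamini-Hochberg over the 11368 genes) under 0.05, 13 of the 40 members were called higher and 4 lower, where 12.4% of all genes tested were called higher and 13.1% lower. The median log2 fold change was 0.21 over the members and -0.01 over all genes. Without the first basal replicate 15 members were called higher and 4 lower, with a median of 0.25. In that fit 25.5% of all genes were called in either direction. The 3 insulin-stimulated and 4 basal Control libraries did not overlap for 16 members that were higher and 3 that were lower, against 12.5% of all genes in each direction. The labels do not say that replicates came from separate cultures, so p-values measure the spread between these samples only, and in bulk RNA a change in the share of cells and a change per cell cannot be told apart.

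The same comparison in the knockdown cells gave 19 members higher and 5 lower in FoxK1 KD cells (16.2% and 15.4% of all genes), 13 higher and 3 lower in FoxK2 KD cells (14.4% and 13.7%), and 13 higher and 3 lower in DKD cells (8.31% and 7.99%). The members' median log2 fold changes were 0.24, 0.14 and 0.18. Groups did not overlap for 19 higher and 5 lower members in FoxK1 KD cells (16% and 15.9% of all genes), 13 and 4 with FoxK2 KD (15.2% and 14.8%), and 16 and 2 in DKD cells (14.3% and 14.4%). In Control, FoxK1 KD and FoxK2 KD cells the insulin comparison runs along the split of 12 and 18 libraries described above, so the effect of insulin and that of the split cannot be told apart there. In DKD cells all libraries of the comparison are among the 18. The sum of the bile duct markers was 1691 to 2153 CPM in basal and 2055 to 2587 CPM in insulin-stimulated Control cells, with 1 of 4 tested markers called higher and 1 lower. That sum went from 1692 to 1967 CPM at basal to 2064 to 2718 CPM after insulin stimulation in DKD cells (1 of 4 called higher), from 1339 to 1741 CPM to 2061 to 2309 CPM in FoxK1 KD cells (2 higher) and from 1965 to 2228 CPM to 2322 to 2825 CPM in FoxK2 KD cells (2 higher and 1 lower). The rRNA-derived loci went from 98.0 to 264 CPM at basal to 284 to 475 CPM in FoxK1 KD cells, with 1 of 2 called higher. The part of either in the members' values was not tested.

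Taken gene by gene, 7 members (17.5%) were called higher with insulin in all 4 genotypes, against 3.66% of all genes tested: Rrp12, Heatr1, Utp20, Pno1, Bysl, Bop1 and Polr1a. Those called lower in all 4 were Npm1 and Polr1c (5% of the members and 2.81% of all genes). In at least 3 genotypes, 12 members (30%) were called higher, against 8.28% of all genes, and 3 members (7.5%) lower, against 7.64%. Polr1e, Dkc1, Nop14, Wdr12 and Rrs1 were called in none of the 13 comparisons made. The heat map of all members sets the 10 comparisons between groups side by side.

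**Figure D1:**
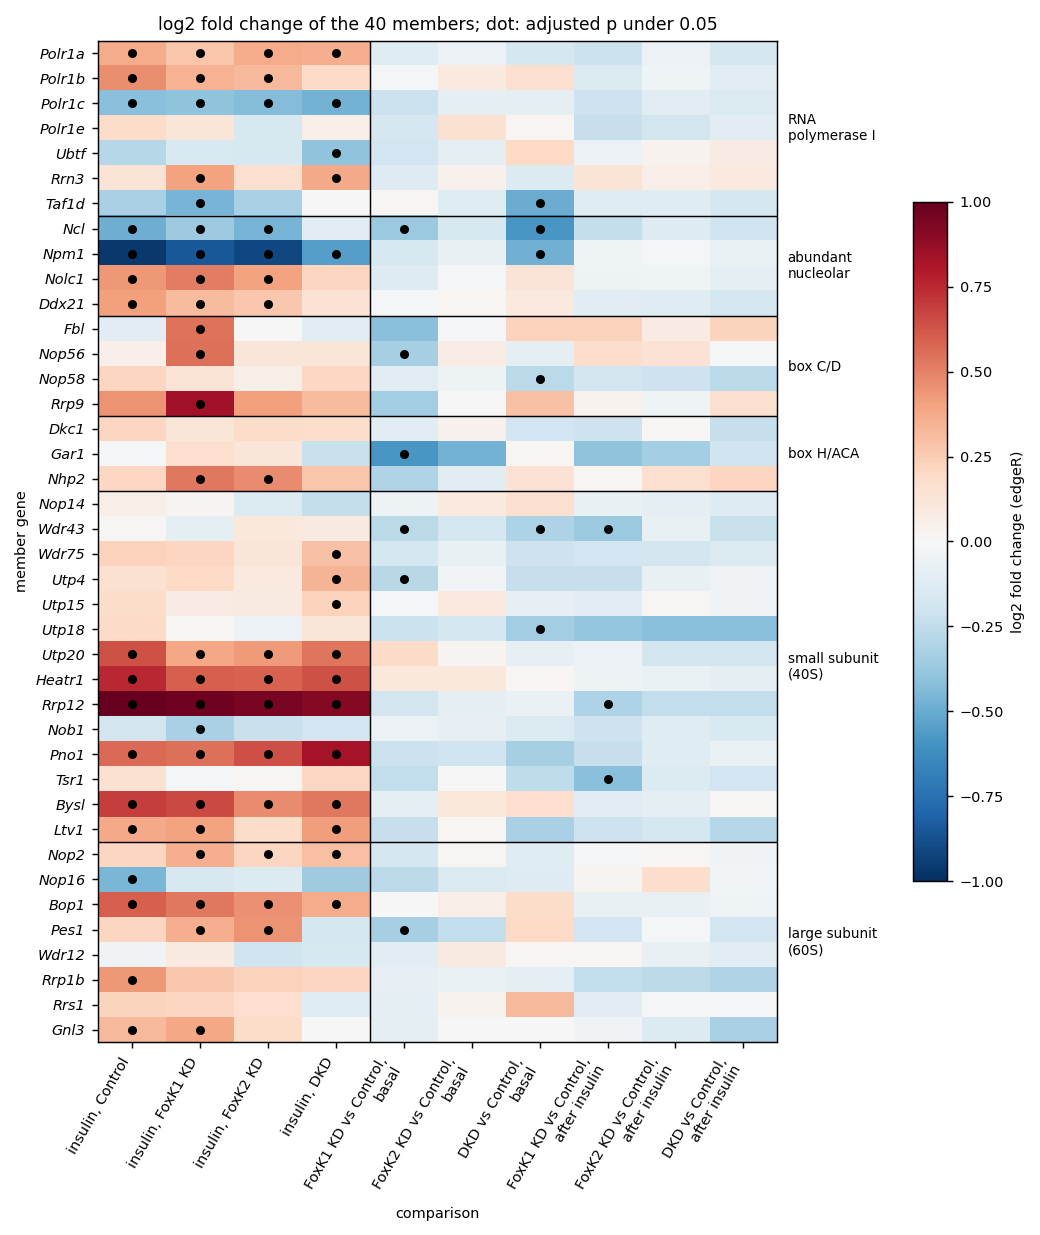
Log2 fold change (colour) of the 40 members (lines, grouped by role) in 10 comparisons between groups (columns), with a dot where the adjusted p was under 0.05. Rrp12, Heatr1, Utp20, Pno1, Bysl, Bop1 and Polr1a are dotted and positive in all 4 insulin columns, Npm1 and Polr1c are dotted and negative in all 4, and the knockdown columns after insulin hold 3 dots, all in FoxK1 KD cells.

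Small-subunit assembly held the largest rises. Rrp12 (chr19:41862851-41896173 in GRCm38, minus strand), which encodes a repeat protein needed for maturation and export of 40S precursors, measured 93.8, 109.5, 97.004 and 89.3 CPM at basal and 185, 228 and 213 CPM after insulin stimulation in Control cells (log2 fold change 1.10 ± 0.08, adjusted p = 3.32e-12). Its log2 fold change was 0.97, 0.95 and 0.92 in FoxK1 KD, FoxK2 KD and DKD cells. Rrp12 ranged from 76.9 to 109.5 CPM over the 16 basal libraries and 158 to 228 CPM over the 14 insulin-stimulated libraries, so the states did not overlap in any genotype. Heatr1, a protein of the early processome that also takes part in RNA polymerase I transcription, measured 37.4, 50.5, 53.1 and 42.1 CPM at basal and 61.7, 79.3 and 92.1 CPM after insulin stimulation in Control cells (log2 fold change 0.76 ± 0.11, adjusted p = 3.88e-06). In FoxK1 KD, FoxK2 KD and DKD cells its log2 fold change was 0.60, 0.59 and 0.64, and it ranged from 37.4 to 55.8 CPM over the 16 basal libraries and 61.7 to 92.1 CPM over the 14 insulin-stimulated libraries. Utp20, a very large scaffold of the processome with an E-box just after its start, measured 107, 188, 185 and 166 CPM at basal and 230.2, 254 and 272 CPM after insulin stimulation in Control cells (log2 fold change 0.64 ± 0.11, adjusted p = 6.5e-05). The first basal replicate, at 107 CPM, was the lowest of all 30 libraries, and without it the log2 fold change of Utp20 was 0.49 (adjusted p = 3.94e-05).

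Pno1 and Bysl act late in 40S assembly. Pno1, an RNA-binding partner of the nuclease that trims the end of small-subunit rRNA, measured 217, 138, 149 and 136 CPM at basal and 278, 188 and 242 CPM after insulin stimulation in Control cells (log2 fold change 0.57 ± 0.15, adjusted p = 0.00524). Those groups overlapped, since the first basal replicate reached 217 CPM. In DKD cells Pno1 was 118, 117, 114 and 155 CPM at basal and 204, 267 and 208 CPM with insulin, without overlap (log2 fold change 0.83 ± 0.15, adjusted p = 0.000203). Bysl, the bystin gene, measured 19.6, 19.003, 20.3 and 21.4 CPM at basal and 37.2, 31.3 and 28.6 CPM after insulin stimulation in Control cells (log2 fold change 0.69 ± 0.14, adjusted p = 0.000322), and all insulin-stimulated Control libraries lay above the basal ones. Its log2 fold change was 0.66, 0.47 and 0.53 in FoxK1 KD, FoxK2 KD and DKD cells, with overlap in FoxK2 KD cells. Nob1, the nuclease itself, did not follow: it measured 38.3, 32.8, 38.5 and 34.1 CPM at basal and 26.9, 38.2 and 29.9 CPM after insulin stimulation in Control cells (log2 fold change -0.18 ± 0.12, adjusted p = 0.289), and in FoxK1 KD cells it fell from 34.4, 34.988, 36.9 and 30.8 CPM to 26.6, 29.9, 26.2 and 26.7 CPM (log2 fold change -0.32 ± 0.12, adjusted p = 0.0386), a call lost in 6 of 8 fits that left out 1 library.

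The other 8 small-subunit members had fewer calls. Ltv1, which accompanies the 40S precursor out of the nucleus, was called higher in Control, FoxK1 KD and DKD cells (log2 fold change 0.38, 0.40 and 0.42). These calls were lost in 5 of 7, 4 of 8 and 6 of 7 fits that left out 1 library. Utp4 (0.34 ± 0.10), Wdr75 (0.29 ± 0.10) and Utp15 (0.23 ± 0.07), parts of the subcomplex that binds the start of the precursor, were called higher with insulin in DKD cells. In Control cells the log2 fold changes of these 3 genes were 0.15, 0.23 and 0.18, none of them called, and in fits that left out 1 library the DKD calls were lost in 3, 6 and 5 of 7. Nop14, Wdr43, Utp18 and Tsr1 were not called in any insulin comparison, with log2 fold changes from -0.24 to 0.21. With the first basal Control replicate left out, Utp18 was called higher in Control cells (0.32, adjusted p = 0.0399).

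**Figure D2:**
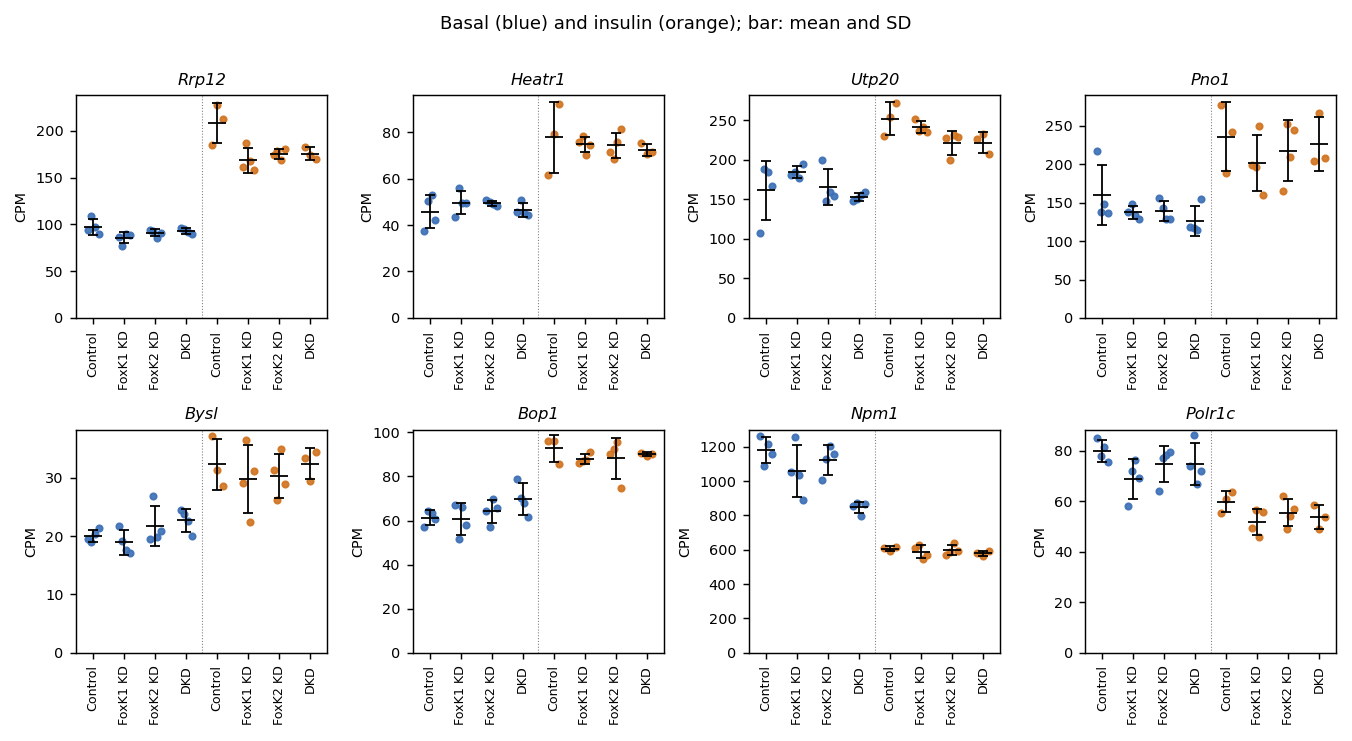
Level (CPM, linear axis) of Rrp12, Heatr1, Utp20, Pno1, Bysl, Bop1, Npm1 and Polr1c in each of the 30 libraries, by genotype, with basal libraries in blue and insulin-stimulated ones in orange. Horizontal bars give the mean and vertical bars the SD of each group; Rrp12 and Heatr1 lie higher and Npm1 lower in every insulin-stimulated library than in any basal one.

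Subunits of RNA polymerase I itself moved in opposite directions. Polr1a, the largest subunit, measured 141, 181, 165 and 155 CPM at basal and 187, 212 and 224 CPM after insulin stimulation in Control cells (log2 fold change 0.37 ± 0.09, adjusted p = 0.00275), and its log2 fold change was 0.28, 0.37 and 0.36 in FoxK1 KD, FoxK2 KD and DKD cells. Polr1b, the second largest, measured 52.2, 52.009, 60.038 and 54.3 CPM at basal and 68.029, 81.2 and 77.7 CPM after insulin stimulation in Control cells (log2 fold change 0.47 ± 0.10, adjusted p = 0.000372), and every insulin-stimulated Control library was above every basal one. Polr1b was also called higher in FoxK1 KD and FoxK2 KD cells (0.34 and 0.33), while in DKD cells it was 0.19 ± 0.10 (adjusted p = 0.176). Polr1c, a subunit shared with RNA polymerase III, measured 85.1, 77.8, 81.4 and 75.4 CPM at basal and 55.4, 60.7 and 63.5 CPM after insulin stimulation in Control cells (log2 fold change -0.42 ± 0.11, adjusted p = 0.00362), and the groups did not overlap. Its log2 fold change in FoxK1 KD, FoxK2 KD and DKD cells was -0.40, -0.43 and -0.47.

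The initiation factors gave a less uniform picture. Rrn3, which brings the polymerase to the promoter of the rRNA genes and carries a pair of E-boxes in its own promoter, measured 102, 101, 101 and 110.2 CPM at basal and 139.6, 143, 138 and 128 CPM with insulin in FoxK1 KD cells (log2 fold change 0.41 ± 0.08, adjusted p = 0.000237). In DKD cells it went from 96.2, 103, 112 and 103 CPM to 135, 149 and 119.6 CPM (log2 fold change 0.38 ± 0.09, adjusted p = 0.0022). The groups did not overlap in either genotype. In Control cells Rrn3 measured 124, 108, 114 and 108 CPM at basal and 138, 113 and 123 CPM after insulin stimulation, with overlap (log2 fold change 0.14 ± 0.09, adjusted p = 0.244). Ubtf, the factor that keeps rRNA genes open, measured 291, 248, 221 and 231 CPM at basal and 182, 153 and 224 CPM after insulin stimulation in DKD cells (log2 fold change -0.40 ± 0.12, adjusted p = 0.0221), with 1 insulin-stimulated library at 224 CPM inside the basal range. Ubtf measured 277, 203, 205 and 181 CPM at basal and 169, 201 and 162 CPM after insulin stimulation in Control cells (log2 fold change -0.29 ± 0.12, adjusted p = 0.086). Taf1d, of the promoter selectivity complex, was called lower with insulin in FoxK1 KD cells (-0.46 ± 0.13) and, when the first basal replicate was left out, in Control cells (-0.43, adjusted p = 0.011), and Polr1e was not called (0.18, 0.12, -0.16 and 0.06 in Control cells and FoxK1 KD, FoxK2 KD and DKD cells).

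Among the abundant nucleolar proteins the direction differed by gene. Npm1 (nucleophosmin, chr11:33152287-33163206), the member with the highest level per length at a mean of 314.6 RPKM, which is CPM per kilobase of exon, measured 1262, 1091, 1218 and 1157 CPM at basal and 612, 592 and 615 CPM after insulin stimulation in Control cells (log2 fold change -0.96 ± 0.09, adjusted p = 3.42e-10). Its log2 fold change was -0.84, -0.91 and -0.55 in FoxK1 KD, FoxK2 KD and DKD cells, and it ranged from 799.6 to 1262 CPM over the 16 basal libraries and 547 to 639 CPM over the 14 insulin-stimulated libraries. Ncl (nucleolin), an RNA-binding protein of early precursor folding, measured 1394, 1056, 1097 and 938 CPM at basal and 756, 864 and 771 CPM after insulin stimulation in Control cells (log2 fold change -0.49 ± 0.10, adjusted p = 0.000203). Ncl also fell in FoxK1 KD and FoxK2 KD cells (-0.36 and -0.46), and in DKD cells, whose basal level was 805, 761, 739 and 690.2 CPM, its log2 fold change was -0.11 ± 0.10 (adjusted p = 0.482). Ddx21, an RNA helicase that binds both the polymerase and snoRNAs, measured 148, 163, 152 and 160.4 CPM at basal and 190.4, 221 and 213 CPM after insulin stimulation in Control cells (log2 fold change 0.41 ± 0.08, adjusted p = 0.00028), with no overlap. Nolc1, a chaperone of snoRNPs, was called higher in Control, FoxK1 KD and FoxK2 KD cells (0.43, 0.52 and 0.40), and in DKD cells it was 0.21 ± 0.09 (adjusted p = 0.101).

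Of the 7 snoRNP genes 4 were called higher with insulin in FoxK1 KD cells, Fbl, Nop56, Rrp9 and Nhp2. In that comparison 16.2% of all genes were called higher, as were 2 of the 10 other snoRNP genes described below. Fbl (fibrillarin), the methyltransferase of box C/D particles, measured 34.8, 39.3, 42.1 and 34.2 CPM at basal and 55.041, 54.5, 42.3 and 66.4 CPM after insulin stimulation in FoxK1 KD cells, without overlap (log2 fold change 0.54 ± 0.15, adjusted p = 0.0069). Nop56, a scaffold of the same particles, measured 62.9, 54.5, 62.3 and 65.6 CPM at basal and 101, 95.6, 77.05 and 86.9 CPM after insulin stimulation (log2 fold change 0.55 ± 0.10, adjusted p = 0.000117), and Rrp9, a protein of the U3 particle, 11.8, 7.92, 10.8 and 9.90 CPM at basal and 19.2, 24.3, 12.7 and 16.7 CPM after insulin stimulation (log2 fold change 0.84 ± 0.19, adjusted p = 0.00103). In Control cells Fbl was 74.6, 41.8, 44.2 and 42.5 CPM at basal and 48.5, 46.1 and 45.6 CPM after insulin stimulation, with the first basal replicate far above the rest (log2 fold change -0.10 ± 0.16, adjusted p = 0.684). Nop56 in Control cells measured 86.5, 72.3, 79.6 and 71.6 CPM at basal and 70.9, 90.4 and 78.9 CPM after insulin stimulation, with overlap (log2 fold change 0.05 ± 0.11, adjusted p = 0.791). The fold change of Rrp9 in Control cells was 0.45 ± 0.19 (adjusted p = 0.0771). Nop58, the partner of Nop56, was not called in any genotype (0.21, 0.14, 0.06 and 0.21). When the first basal Control replicate was left out, both Rrp9 (0.57, adjusted p = 0.0255) and Nop58 (0.28, adjusted p = 0.0216) were called higher in Control cells. Of the box H/ACA genes, whose particles make pseudouridine, Nhp2 was called higher in FoxK1 KD and FoxK2 KD cells (0.53 and 0.47), calls lost in 4 of 8 and 6 of 8 fits that left out 1 library. Dkc1 (dyskerin), the pseudouridine synthase, measured 45.4, 63.011, 62.8 and 60.7 CPM at basal and 70.9, 65.7 and 65.7 CPM after insulin stimulation in Control cells (log2 fold change 0.22 ± 0.11, adjusted p = 0.163), and Gar1 was -0.01, 0.17, 0.12 and -0.22 in the 4 genotypes with no call.

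For the large subunit, Bop1 led. Bop1, which with Pes1 and Wdr12 forms the PeBoW complex of 60S maturation, measured 56.989, 64.3, 63.5 and 60.5 CPM at basal and 96.2, 96.1 and 85.8 CPM after insulin stimulation in Control cells, with no overlap (log2 fold change 0.60 ± 0.10, adjusted p = 1.8e-05), and its log2 fold change was 0.53, 0.46 and 0.37 in FoxK1 KD, FoxK2 KD and DKD cells. Its partners did not share that pattern: Pes1 was called higher in FoxK1 KD and FoxK2 KD cells (0.36 and 0.45) and had log2 fold changes of 0.22 and -0.17 in Control and DKD cells, not called, while Wdr12 was -0.04, 0.09, -0.20 and -0.16 in the 4 genotypes. Gnl3 (nucleostemin), a GTPase that links 60S assembly with the cell cycle, measured 53.6, 60.01, 52.3 and 49.6 CPM at basal and 60.1, 66.7 and 75.5 CPM after insulin stimulation in Control cells, without overlap (log2 fold change 0.32 ± 0.11, adjusted p = 0.0235), and was also called in FoxK1 KD cells (0.38). Nop2, a methyltransferase of large-subunit rRNA, was called higher in FoxK1 KD, FoxK2 KD and DKD cells (0.36, 0.22 and 0.30), and in Control cells it was 0.22 ± 0.08 (adjusted p = 0.0503). Rrp1b was called higher in Control cells (0.43 ± 0.12). Nop16 measured 39.977, 30.8, 30.3 and 29.6 CPM at basal and 23.995, 30.026 and 16.977 CPM after insulin stimulation in Control cells (log2 fold change -0.45 ± 0.16, adjusted p = 0.0315), a call that was lost without the first basal replicate, the highest of the group. Rrs1, which brings in the ribonucleoprotein of the smallest large-subunit rRNA, measured 23.5, 17.3, 17.4 and 17.1 CPM at basal and 20.04, 21.8 and 23.6 CPM after insulin stimulation in Control cells (log2 fold change 0.22 ± 0.18, adjusted p = 0.388).

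The members with the largest changes in the knockdown cells are given by library. In FoxK1 KD cells Rrp12 measured 86.7, 76.9, 90.1 and 88.6 CPM at basal and 161, 187, 168 and 158 CPM after insulin stimulation, Bysl 21.7, 19.1, 17.6 and 17.1 CPM at basal and 29.2, 36.6, 22.4 and 31.2 CPM after insulin stimulation, and Heatr1 43.4, 55.8, 49.6 and 49.5 CPM at basal and 75.7, 78.4, 70.3 and 74.2 CPM after insulin stimulation. No group overlapped. Polr1c fell there from 57.9, 71.957, 76.2 and 69.034 CPM to 49.5, 56.4, 45.7 and 55.7 CPM, Taf1d from 40.957, 45.6, 48.2 and 44.1 CPM to 31.03, 29.5, 40.2 and 29.3 CPM, Ncl from 875, 814, 896 and 889 CPM to 664, 731, 652 and 655 CPM, and Npm1 from 1052, 1256, 1037 and 889 CPM to 609.5, 631, 547 and 570.5 CPM. In each of these the basal libraries lay above the insulin-stimulated ones.

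In FoxK2 KD cells Rrp12 measured 93.5, 93.4, 85.6 and 90.998 CPM at basal and 174, 178, 169 and 181 CPM after insulin stimulation, Pno1 157, 143, 129 and 129 CPM at basal and 165, 252, 209 and 245 CPM after insulin stimulation, Heatr1 50.6, 49.9, 48.8 and 48.1 CPM at basal and 71.4, 68.5, 75.8 and 81.3 CPM after insulin stimulation, and Bysl 19.4, 26.8, 19.9 and 20.9 CPM at basal and 31.3, 26.1, 34.9 and 28.977 CPM after insulin stimulation. Bysl was the one of these with overlap, from its second basal library. Polr1c fell from 63.9, 76.954, 78.5 and 79.3 CPM to 61.9, 48.964, 54.3 and 56.7 CPM, Ncl from 1030.4, 1039, 1023 and 923 CPM to 722, 695, 817 and 680.0 CPM and Npm1 from 1004, 1131, 1204 and 1158 CPM to 571, 587, 639 and 593 CPM, without overlap. In DKD cells, whose libraries lie on 1 side of the split, Rrp12 measured 96.2, 94.8, 91.6 and 89.4 CPM at basal and 183, 174 and 170.2 CPM after insulin stimulation, Heatr1 45.7, 50.6, 45.3 and 44.2 CPM at basal and 75.1, 70.4 and 71.4 CPM after insulin stimulation, and Utp20 148, 150.4, 155 and 159 CPM at basal and 226, 233 and 207 CPM after insulin stimulation. These 3 genes were higher in every insulin-stimulated library. Polr1c fell in DKD cells from 73.8, 86.1, 66.6 and 71.9 CPM to 58.3, 49.1 and 53.7 CPM and Npm1 from 853, 871, 799.6 and 866 CPM to 580.0, 565 and 590.2 CPM, again without overlap.

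Summed levels by role showed the directions of the abundant genes. The 14 small-subunit genes summed to 1096 ± 45.5 CPM (SD, n = 4) in basal Control cells and 1474 ± 38.9 CPM (n = 3) with insulin, and to 979 ± 20.2 and 1328 ± 48.01 CPM in DKD cells. The 4 abundant nucleolar genes summed to 2564 ± 249 CPM at basal and 1754 ± 66.9 CPM with insulin in Control cells, and to 1878 ± 55.5 and 1590.4 ± 52.03 CPM in DKD cells. The 7 genes of RNA polymerase I and its factors summed to 686 ± 39.6 and 699 ± 32.2 CPM in Control cells. As Npm1 and Ncl hold a large share of the counts, all 40 members together summed to 5443 ± 375 CPM at basal and 5171 ± 156 CPM with insulin in Control cells. These sums are given without a test.

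**Figure D3:**
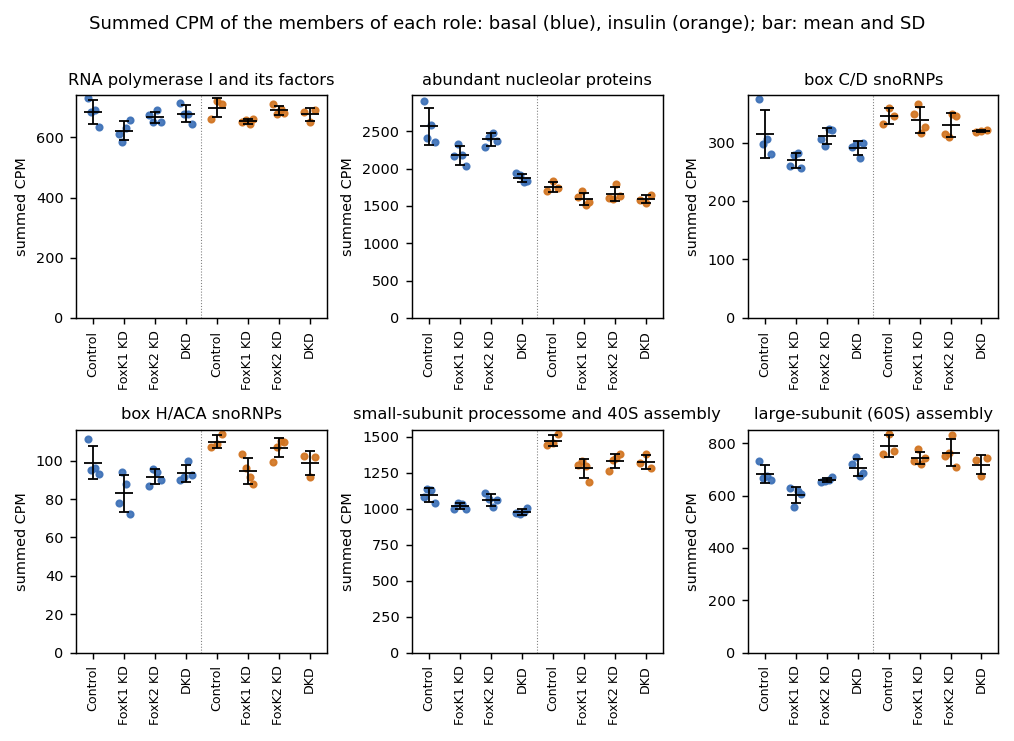
Summed level (CPM) of the members of each role in the 30 libraries, by genotype, with basal libraries in blue and insulin-stimulated ones in orange and with bars for the mean and SD of each group. The small-subunit sum goes from a mean of 1096 to 1474 CPM in Control cells while the abundant nucleolar sum goes from 2564 to 1754 CPM.

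The insulin effects of the 4 genotypes were then set against each other. Each genotype has its own basal and insulin-stimulated libraries, so the 4 effects share no sample. The effects in Control, FoxK1 KD and FoxK2 KD cells all run along the split of 12 and 18 libraries, and that in DKD cells does not. Across the 40 members, which are not independent replicates, Spearman's rho between a pair of genotypes ran from 0.711 (FoxK1 KD and DKD cells) to 0.898 (Control and FoxK2 KD cells), and over all 11368 genes from 0.429 to 0.724. Members had the same sign in 31 to 36 of 40 cases, and all genes in 64.3% to 78.5%. Over all genes rho was 0.628 to 0.724 between genotypes that share the split and 0.429 to 0.532 for pairs with DKD cells. For the members it was 0.762 to 0.898 and 0.711 to 0.788. The part of the split in this likeness was not tested. The test of the difference between insulin effects called no member for FoxK1 KD, FoxK2 KD or DKD cells against Control, where it called 0%, 0% and 1.54% of all genes. The difference for DKD cells also runs along the split of 12 and 18 libraries. At an unadjusted p under 0.05 there were 3, 0 and 5 of the 40 members, against 13.4%, 5.5% and 14.6% of all genes. limma-voom called no member in any of the 3, and DESeq2 called 1, Npm1, in DKD cells. The lowest unadjusted p-values belonged in FoxK1 KD cells to differences of 0.64 ± 0.22 for Fbl (adjusted p = 0.227) and 0.51 ± 0.15 for Nop56 (adjusted p = 0.192). In DKD cells they belonged to 0.41 ± 0.12 for Npm1 (adjusted p = 0.074), -0.39 ± 0.14 for Pes1 (adjusted p = 0.158) and 0.38 ± 0.13 for Ncl (adjusted p = 0.146). Without the first basal Control replicate the Fbl difference was 0.40 and the Nop56 difference 0.44. For DKD cells Npm1 was then 0.38, Pes1 -0.41 and Ncl 0.26, while Gar1 went from -0.21 to -0.58 (adjusted p = 0.0962).

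In FoxK1 KD cells at basal, a few ribosome assembly genes were lower than in Control cells. The 3 knockdowns at basal were compared with the same 4 Control libraries. Of the 40 members, 6 were called lower and none higher, where 4.71% of all genes were called lower and 3.39% higher. The median log2 fold change was -0.16 over the members and -0.01 over all genes, and 37 of the 40 members were below 0. Groups did not overlap for 5 members, all lower (4.66% of all genes lower, 5.32% higher). Gar1, a box H/ACA protein, measured 17.4, 18.8, 19.996 and 14.4 CPM in FoxK1 KD cells and 46.5, 21.5, 21.1 and 19.1 CPM in Control cells (log2 fold change -0.58 ± 0.19, adjusted p = 0.0495), and the first Control replicate lay far above the rest. Ncl measured 875, 814, 896 and 889 CPM in FoxK1 KD cells and 1394, 1056, 1097 and 938 CPM in Control cells (log2 fold change -0.37 ± 0.09, adjusted p = 0.00798), without overlap. Pes1 was at 161, 119, 158 and 176 CPM in FoxK1 KD cells and 202, 194, 187 and 194 CPM in Control cells (log2 fold change -0.33 ± 0.09, adjusted p = 0.0221) and Nop56 at 62.9, 54.5, 62.3 and 65.6 CPM in FoxK1 KD cells and 86.5, 72.3, 79.6 and 71.6 CPM in Control cells (log2 fold change -0.33 ± 0.10, adjusted p = 0.0396), and neither pair of groups overlapped. Utp4 (-0.28 ± 0.09) and Wdr43 (-0.27 ± 0.08), parts of the processome, were called with overlapping groups.

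These calls depended on single libraries. Without the first basal Control replicate 1 member, Utp4, was called lower (log2 fold change -0.32), where 3.59% of all genes were called in either direction, and the members' median was -0.10 with 35 below 0. The count was 3 without the third basal Control replicate and 3, 1, 3 and 2 without FoxK1 KD basal replicates 1 to 4 in turn. It was 0 when only these 2 groups were fitted. The rRNA-derived loci moved with the comparison, at 98.0 to 264 CPM in FoxK1 KD and 310 to 1110 CPM in Control cells at basal, and so did the bile duct markers, at 1339 to 1741 and 1691 to 2153 CPM, with 2 of 4 tested markers called lower. The part of either in these basal values was not tested.

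**Figure D4:**
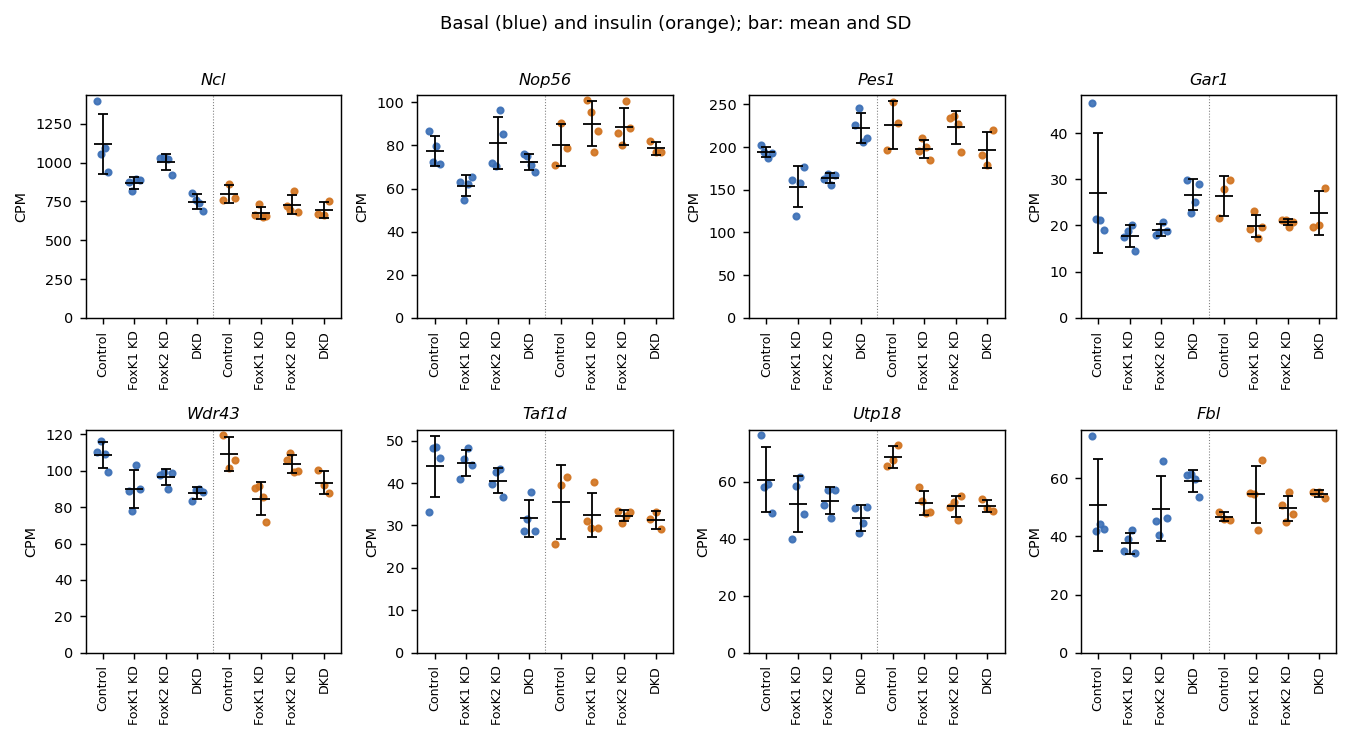
Level (CPM, linear axis) of Ncl, Nop56, Pes1, Gar1, Wdr43, Taf1d, Utp18 and Fbl in the 30 libraries, by genotype, with basal libraries in blue and insulin-stimulated ones in orange and with bars for the mean and SD of each group. The basal levels of Ncl lie at 690.2 to 805 CPM in DKD cells and 938 to 1394 CPM in Control cells, and 1 basal Control library stands above the rest for Gar1 and Fbl.

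In DKD cells at basal, Ncl, Npm1 and Taf1d were lower than in Control cells. This comparison runs along the split of 12 and 18 libraries, which cannot be told apart from the knockdown here. Of the members, 6 were called lower and none higher, where 10.8% of all genes were called lower and 10.3% higher. The median log2 fold change was -0.09 over the members and -0.0006 over all genes. Ncl measured 805, 761, 739 and 690.2 CPM in DKD cells and 1394, 1056, 1097 and 938 CPM in Control cells (log2 fold change -0.58 ± 0.09, adjusted p = 1.55e-05), and Npm1 853, 871, 799.6 and 866 CPM in DKD cells and 1262, 1091, 1218 and 1157 CPM in Control cells (log2 fold change -0.48 ± 0.08, adjusted p = 5.01e-05), with no overlap for either. Taf1d measured 28.7, 31.4, 37.9 and 28.8 CPM in DKD cells and 33.2, 48.3, 48.4 and 45.9 CPM in Control cells (log2 fold change -0.50 ± 0.13, adjusted p = 0.0055), where the first Control replicate lay inside the DKD range. Utp18, a processome protein with an E-box, measured 50.8, 41.9, 45.3 and 51.1 CPM in DKD cells and 76.3, 58.3, 59.3 and 48.9 CPM in Control cells (log2 fold change -0.34 ± 0.12, adjusted p = 0.0351). Wdr43 (-0.31 ± 0.09) and Nop58 (-0.27 ± 0.09) completed the calls. Groups did not overlap for 3 members that were lower and 1 that was higher, Pes1, against 8.78% and 9.61% of all genes.

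Without the first basal Control replicate, 9 members were called lower and 3 higher, where 27% of all genes were called in either direction. The higher ones were Fbl (0.46), Gar1 (0.38) and Ubtf (0.33), and the lower ones were Polr1a, Taf1d, Ncl, Npm1, Dkc1, Wdr43, Wdr75, Utp4 and Utp20. Fbl, Gar1 and Ubtf measured 61.2, 61.7, 59.7 and 53.7, 29.9, 22.7, 24.987 and 29.013 and 291, 248, 221 and 231 CPM in DKD cells, against 74.6, 46.5 and 277 CPM in that replicate and 41.8 to 44.2, 19.1 to 21.5 and 180.9 to 205 CPM in the others. Leaving out DKD basal replicate 4 also gave 1 call higher. The members' log2 fold changes in DKD cells at basal moved with base composition. Across the 40 members Spearman's rho between the log2 fold change and the GC content of the exons was 0.673, and across 11346 genes it was 0.477, in libraries shared by all of them. Other comparisons showed weaker relations, given here over the members and, in brackets, over all genes. For insulin rho was 0.195 (0.072) in Control, 0.38 (0.34) in FoxK1 KD, 0.329 (0.246) in FoxK2 KD and 0.051 (-0.219) in DKD cells. It was 0.423 (0.215) for DKD against Control cells after insulin and -0.38 (-0.31) for the DKD difference in insulin effect. In the remaining comparisons the members' rho ran from -0.212 to 0.304. With the trend on GC content and length removed, 3 members were called lower in DKD cells at basal, Ncl, Npm1 and Nop2, and the calls of Taf1d, Nop58, Wdr43 and Utp18 were lost. The hepatocyte markers, whose sum is mostly Krt8 and Krt18, moved with this comparison as well, with 3 of 8 called higher. Their sums were 2314 to 2415 CPM in DKD and 1503 to 2446 CPM in Control cells, and their part in the members' values was not tested.

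**Figure D5:**
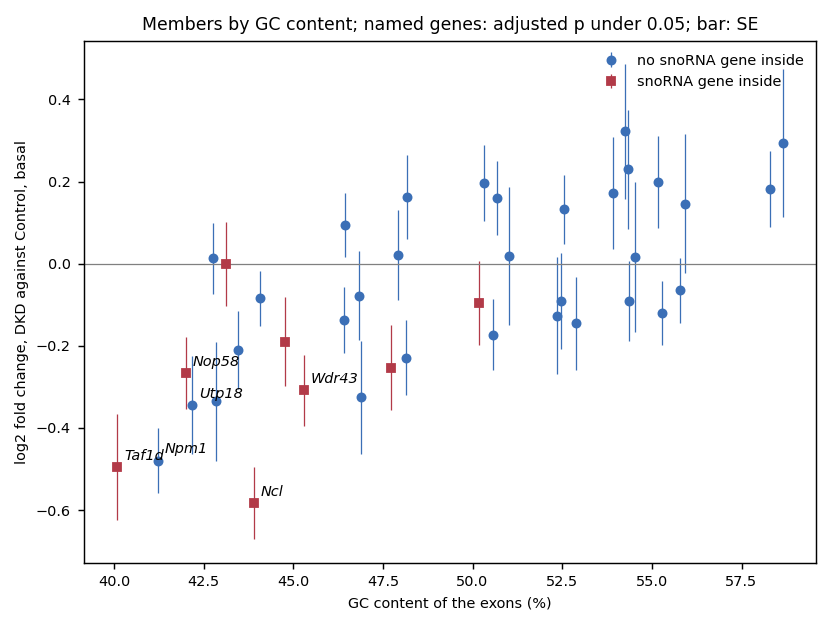
Log2 fold change of DKD against Control cells at basal (vertical axis) against the GC content of the exons in percent (horizontal axis) for the 40 members. Bars give the standard error. Squares mark members with a snoRNA gene inside and circles the others, and named genes had an adjusted p under 0.05. Spearman's rho is 0.673 over the members and 0.477 over 11346 genes, which are not drawn.

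In the annotation, 8 of the members carry snoRNA genes within their span: Taf1d, Ncl, Nop56, Nop58, Dkc1, Wdr43, Tsr1 and Gnl3. This group was chosen after its values were seen, and is described only. In DKD cells at basal 4 of these 8 were called lower (Taf1d, Ncl, Nop58 and Wdr43), against 2 of the 32 others and 10.8% of all genes. With the GC and length trend removed, the calls of Taf1d, Nop58 and Wdr43 were lost. In FoxK1 KD cells the counts were 3 of 8 and 3 of 32 at basal and 2 of 8 and 1 of 32 after insulin stimulation, where 4.71% and 1.72% of all genes were called lower. None of the 8 was called in FoxK1 KD cells at basal when the first basal Control replicate was left out. In FoxK2 KD cells they were 0 of 8 and 0 of 32 in both states.

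FoxK2 KD cells gave no call at basal. At an adjusted p under 0.05 no member passed in edgeR, DESeq2 or limma-voom, where 0.378% of all genes passed in edgeR. In edgeR 3 members had an unadjusted p under 0.05, against 11.2% of all genes. The 3 members were Gar1 (log2 fold change -0.47 ± 0.18, adjusted p = 0.294), Pes1 (log2 fold change -0.25 ± 0.09, adjusted p = 0.268) and Wdr43 (log2 fold change -0.17 ± 0.08, adjusted p = 0.422). Pes1 measured 163, 168, 155 and 167 CPM in FoxK2 KD cells and 202, 194, 187 and 194 CPM in Control cells, so that the groups did not overlap. Without the first basal Control replicate, which held 46.5 CPM of Gar1, the log2 fold change of Gar1 was -0.09, that of Pes1 -0.22 and that of Wdr43 -0.16, with no member and 0.114% of all genes called. The members' median was -0.01 with that replicate and 0.0046 without it.

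After insulin stimulation few of these genes were called between the knockdowns and Control cells, while most lay below 0. The members' median log2 fold change was -0.12, -0.07 and -0.12 in FoxK1 KD, FoxK2 KD and DKD cells. Over all genes it was 0.0033, 0 and 0.0057. Below 0 lay 33, 31 and 34 of the 40 members. The 3 comparisons share the 3 Control libraries, so their values are set side by side and not counted as separate evidence. In FoxK1 KD cells 3 members were called lower and none higher, where 1.72% of all genes were called lower and 1.86% higher. Tsr1, a GTPase-like factor of late 40S assembly, measured 47.7, 47.4, 33.4 and 40.1 CPM in FoxK1 KD cells and 50.4, 61.001 and 58.2 CPM in Control cells (log2 fold change -0.41 ± 0.11, adjusted p = 0.0341). Wdr43 measured 90.5, 91.5, 85.5 and 71.6 CPM in FoxK1 KD cells and 120.0, 102 and 106 CPM in Control cells (log2 fold change -0.37 ± 0.09, adjusted p = 0.0222), and neither gene's groups overlapped. Rrp12 was at 161, 187, 168 and 158 CPM in FoxK1 KD cells and 185, 228 and 213 CPM in Control cells (log2 fold change -0.31 ± 0.08, adjusted p = 0.0278), with overlap. The count of 3 became 1 without Control insulin replicate 2 or 3 or FoxK1 KD insulin replicate 3, and 0 without FoxK1 KD insulin replicate 4 or when only the 2 groups were fitted.

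In FoxK2 KD cells after insulin stimulation no member was called (0.0264% of all genes), with 4 at an unadjusted p under 0.05 (6.03% of all genes). In DKD cells no member was called either (1.21% of all genes), with 6 at an unadjusted p under 0.05 (12.7% of all genes). There 34 of 40 members lay below 0 with a median of -0.12. DESeq2 and limma-voom called no member in either comparison. In DKD cells the groups did not overlap for 10 members that were lower and 1 that was higher, against 8.42% and 8.78% of all genes. In FoxK1 KD and FoxK2 KD cells they did not overlap for 6 and 3 lower members, against 8.37% and 3.3% of all genes. Utp18 was 65.7, 67.6 and 72.9 CPM in Control cells after insulin stimulation, 57.996, 53.4, 49.1 and 49.4 CPM in FoxK1 KD cells, 51.1, 52.8, 46.4 and 54.8 CPM in FoxK2 KD cells and 53.9, 50.7 and 49.7 CPM in DKD cells. Every knockdown library lay below every Control library, with log2 fold changes of -0.39 ± 0.13, -0.42 ± 0.13 and -0.42 ± 0.14 and adjusted p-values of 0.0915, 0.423 and 0.14. Rrp12 was -0.25 in FoxK2 KD and -0.24 in DKD cells, not called.

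Other genes of the pathway, from lists fixed by function, are read against the shares of all genes called with insulin, which were 12.4% higher and 13.1% lower in Control cells, 16.2% and 15.4% in FoxK1 KD cells, 14.4% and 13.7% with FoxK2 KD, and 8.31% and 7.99% in DKD cells. Of 37 other small-subunit factors, 5 were called higher and 2 lower in Control cells, 10 and 1 in FoxK1 KD cells, 4 and 6 with FoxK2 KD and 4 and 1 in DKD cells. Tbl3, a processome protein, was 0.62, 0.87, 0.64 and 0.34, and Nat10, the acetyltransferase of small-subunit rRNA, was 0.43, 0.72, 0.61 and 0.35, called in every genotype. Of 43 other large-subunit factors, 9 were called higher and 2 lower in Control cells, 15 and 4 in FoxK1 KD cells, 7 and 4 with FoxK2 KD and 2 and 3 in DKD cells. Mak16 (0.84), Nifk (0.73) and the giant ATPase Mdn1 (0.72) were highest in Control cells, and Nop53, which recruits the exosome, was -0.83, -0.65, -0.69 and -0.88. Of 13 tested genes of the nuclear exosome, 3, 5, 2 and 0 were called higher in the 4 genotypes and none lower, with Exosc2 at 0.57 in Control cells. The 14 other genes of RNA polymerase I and its factors gave 1 call higher and 1 lower in Control cells (Tcof1 0.55, Polr2h -0.76), 2 and 0 in FoxK1 KD cells, none in FoxK2 KD cells and 0 and 2 in DKD cells. The 10 other snoRNP genes gave 0 and 2, 2 and 0, 0 and 0, and 0 and 2 in the same order.

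Of 16 regulators of rRNA gene transcription, 2 were called higher and 5 lower in Control cells, 3 and 3 in FoxK1 KD cells, 2 and 4 with FoxK2 KD and 0 and 3 in DKD cells. Myc, which activates many ribosome assembly genes through E-boxes, measured 63.5 to 71.0 CPM in basal and 38.9 to 46.9 CPM in insulin-stimulated Control cells (-0.62 ± 0.12, adjusted p = 0.000223). Myc was also called lower in FoxK2 KD and DKD cells (-0.63 and -0.82), and in FoxK1 KD cells it was -0.27 ± 0.12, adjusted p = 0.07. Mxi1, a repressor that competes with Myc for its partner, was called lower in Control, FoxK1 KD and FoxK2 KD cells (-0.85, -0.79 and -0.54). Mybbp1a (0.36) and Sirt7 (0.36) were called higher in Control cells.

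In the knockdowns at basal the same lists are read against 3.39% of all genes higher and 4.71% lower in FoxK1 KD cells and 10.3% and 10.8% in DKD cells. The other small-subunit factors gave 1 call higher and 5 lower in FoxK1 KD cells, with Imp3 at -0.69, and 1 and 4 in DKD cells, with Krr1 at -0.48. The other large-subunit factors gave 0 and 2 in FoxK1 KD cells and 4 and 4 in DKD cells, where Nifk was 0.50 and Ddx10 -0.48. The remaining polymerase genes gave 0 and 0 in FoxK1 KD and 2 and 0 in DKD cells, the remaining snoRNP genes 0 and 2 and 1 and 2, the exosome 0 and 0 and 1 and 1, and the regulators 0 and 2 and 2 and 3. In FoxK2 KD cells none of these lists held a call in either state. After insulin stimulation FoxK1 KD cells gave 1 lower small-subunit factor and 1 regulator in each direction, and DKD cells 1 higher exosome gene, Exosc5 (0.78), and 1 regulator in each direction.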

How the data were processed

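RNA-seq counts of 30 libraries in 8 groups, taken from the labels, were analysed. As deposited, each table holds raw counts (whole reads per gene, not normalized) for 49089 Ensembl identifiers. The submitters' processing notes name CASAVA 1.8, STAR 2.4.2a, featureCounts and GRCm38.p4, and the paper names the NEBNext mRNA kit and limma; the annotation release, the strand setting and the treatment of reads with several positions are not given in the sources used here. For basal samples the time in the labels is 0 h, and the paper's methods describe a mock treatment of 6 h.

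Of the identifiers, 48435 were found in GENCODE M21 (GRCm38), which gave symbols, coordinates, GC content and length. Promoter windows came from RefSeq (GRCm38.p6). edgeR 4.0.16 with filterByExpr left 11368 genes, which were normalized by TMM and tested by the quasi-likelihood test in 1 model of the 8 groups, with Benjamini-Hochberg adjustment over all 11368 genes and a call at an adjusted p under 0.05. The standard error is the size of the log2 fold change over the root of F, and CPM uses TMM library sizes. Values per sample were given for a fixed set of members by role and for up to 4 called members in each direction and comparison, and from each other list at most 3 called genes per direction with a mean log2-CPM of at least 1 were named. The members and lists were chosen with earlier results of these data known. Totals of 2141460 to 5668270 counts set the precision, and the script was tested on simulated data. Over 42 pairs of replicates of the same group chi-square per degree of freedom was at least 1.7, so no library was a copy of another in its group. Pairs from different groups were not tested in this way. Alternatives were DESeq2 1.42.0, limma-voom (limma 3.58.1), other filters, only the groups compared, a replicate block, a GC and length trend removed, the study's threshold and leaving out each library. R 4.3.3, Python 3.11.15, pandas 2.3.3, numpy 2.4.6 and matplotlib 3.10.9 were used.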

Additional observations from a re-analysis of the deposited data

Results flagged for a closer look

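For the 40 members and their sum, each in the 6 groups of 4 libraries, 18 of 246 sets of values (7.32%) held a library that stood apart from the other 3 by Dixon's criterion, where chance gives about 1 in 20. All 18 were single members, and 8 of them were in the first replicate of basal Control cells: Fbl at 74.57, Gar1 at 46.5, Pno1 at 217.5, Nop16 at 39.98 and Rrs1 at 23.53 CPM lay above the other 3, and Taf1d at 33.17, Dkc1 at 45.36 and Utp4 at 85.34 CPM lay below them. This is the library with 1110 CPM on rRNA-derived loci. Its effect on each basal comparison is given beside the comparison.

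The other 10 values were spread over 5 groups. Rrn3 was highest in FoxK1 KD basal replicate 4 at 110.2 CPM, Dkc1 in FoxK2 KD basal replicate 2 at 64.01 CPM and Pno1 in DKD basal replicate 4 at 154.6 CPM. Polr1c was lowest in FoxK2 KD basal replicate 1 at 63.9 CPM and Ncl in FoxK2 KD basal replicate 4 at 923.2 CPM. After insulin stimulation, Taf1d was highest in FoxK1 KD replicate 3 at 40.22 CPM, and Ncl and Nob1 in FoxK1 KD replicate 2 at 730.9 and 29.86 CPM. Utp20 was lowest in FoxK2 KD insulin replicate 2 at 199.4 CPM and Nob1 in FoxK2 KD insulin replicate 4 at 24.25 CPM.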

How the results depend on the processing

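No member's call changed direction under any alternative. Of 88 calls of a member in a comparison, DESeq2, limma-voom and a minimum of 10 counts kept 86 each, and the replicate block kept 81. Same-numbered samples did not deviate together on average (mean r -0.0134 over 99 pairs, from -0.205 to 0.199). That mean is taken over all groups, so it cannot exclude pairing between particular groups. The block moved 1 count, FoxK1 KD against Control at basal, by over 1.5 times, from 6 lower to 3. With the GC and length trend removed 76 calls held, and the counts lower were 3 for DKD at basal and 3 for insulin in FoxK1 KD cells. With both the trend and the block 71 held, with 3 lower in each of these comparisons and 3 in FoxK1 KD cells at basal. Without a filter 72 held, with 1 member lower in FoxK1 KD cells after insulin and 1 higher, Fbl, in the FoxK1 KD difference in insulin effect. With only the groups compared 71 held, with 8 higher for insulin in Control cells and 0 lower in FoxK1 KD cells in both states. DESeq2 called 1 higher in the DKD difference. The study's threshold (adjusted p under 0.25, with a fold above 1.5 for insulin effects) kept 33 calls: 5, 4, 3 and 3 higher and 1, 1, 1 and 0 lower for insulin in Control cells and in FoxK1 KD, then FoxK2 KD, then DKD cells, 12 lower in FoxK1 KD and 14 lower and 5 higher in DKD cells at basal, 7 and 4 lower in FoxK1 KD and DKD cells after insulin, and 1 higher in the FoxK1 KD difference. The cause of these shifts was not tested. Leaving out 1 library gave 1 to 6 lower in FoxK1 KD and 0 to 3 higher and 5 to 9 lower in DKD cells at basal, 0 to 3 lower in FoxK1 KD cells after insulin, 11 to 15, 17 to 19, 11 to 13 and 9 to 11 higher and 3 to 5, 4 to 5, 3 to 4 and 2 to 3 lower for insulin in Control cells and in FoxK1 KD, then FoxK2 KD, then DKD cells.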
